A study of Mus musculus with 6 samples.

Results

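The genes of the MYC and MAX network were followed in mouse embryonic stem (ES) cells with and without Satb1, which encodes a nuclear protein that binds DNA and shapes chromatin folding. The network was taken as 10 genes given by name, Myc, Mycn, Mycl, Max, Mxd1, Mxd3, Mxd4, Mxi1, Mnt and Mga, and all 10 were measured among the 19938 genes of the arrays. Each had 1 probe set with a single gene symbol, so no choice between probe sets was needed. Total RNA was hybridised to 6 expression arrays of 1 colour, 3 from Satb1-/- cells (clones 1-1, 1-2 and 2-1) and 3 from wild-type (WT) control cells (arrays 1, 2 and 3). Cells of both genotypes carried a hygromycin-resistance and thymidine kinase reporter in the Oct4 locus. LIF and serum maintained them, and before harvest they spent 3 days on irradiated feeders under hygromycin, so that cells expressing Oct4 were selected; a settling step then took away most feeders. No source used here gives the strain, the sex of the lines, the deleted segment of Satb1 or what the first clone number stands for. Whether arrays of 1 genotype were separate cultures is not stated either, and p-values therefore measure only spread among these arrays, possibly technical.

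MYC, MYCN and MYCL are transcription factors that bind DNA as dimers with MAX, at E-box sites, and raise genes of ribosome production, metabolism and division. MXD1, MXD3, MXD4 and MXI1 also pair with MAX, but recruit the SIN3 corepressor, and MNT, a broadly expressed relative, does the same. MGA pairs with MAX in a polycomb complex, PRC1.6, that keeps germline genes silent in ES cells. In mouse ES cells MYC and MYCN are known to act redundantly in self-renewal, downstream of LIF among other signals.

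Promoters of 9 of the 10 genes were matched by symbol to RefSeq windows (GRCm38.p6, 250 bases before to 50 bases after a listed transcript start, read 5′ to 3′ on the strand of the gene). The E-box CACGTG, the site of MAX dimers, was searched together with the E2F sites TTTGGCGC and TTTCGCGC, all on both strands. An E-box was found in 3 of these 9 genes, Max, Mnt and Mxd4, against 8.09% of all 27025 genes with such a window (7.15% of 32851 windows). An E2F site was found in 1, Mycn, against 0.929% of genes (0.813% of windows). The E-box of Max starts at position -3 and spans the listed start, that of Mnt starts at -123 and that of Mxd4 at -219. The 3 matches in Mycn start at -183, -179 and -168, and the first pair overlap on opposite strands. Printed here are Max and Mycn, as examples with each motif in capitals, and Mga, which had the largest difference of the 10 genes and holds neither motif. The windows are chr12:76962199-76962498 (minus strand) for Max, chr12:12941787-12942086 (minus strand) for Mycn and chr2:119896978-119897277 (plus strand) for Mga. A match describes the letters in the window and is not a bound site.
Max: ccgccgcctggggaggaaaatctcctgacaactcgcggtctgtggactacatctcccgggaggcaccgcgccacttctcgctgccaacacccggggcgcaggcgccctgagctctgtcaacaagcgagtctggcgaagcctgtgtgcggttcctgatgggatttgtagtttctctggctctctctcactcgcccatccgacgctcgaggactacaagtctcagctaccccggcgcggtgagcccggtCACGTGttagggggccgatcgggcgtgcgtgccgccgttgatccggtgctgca
Mycn: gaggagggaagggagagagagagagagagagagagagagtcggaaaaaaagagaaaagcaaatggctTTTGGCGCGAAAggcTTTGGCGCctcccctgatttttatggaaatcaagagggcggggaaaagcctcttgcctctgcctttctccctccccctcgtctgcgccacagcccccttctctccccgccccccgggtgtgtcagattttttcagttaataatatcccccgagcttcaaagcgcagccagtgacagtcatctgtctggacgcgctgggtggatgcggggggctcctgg
Mga: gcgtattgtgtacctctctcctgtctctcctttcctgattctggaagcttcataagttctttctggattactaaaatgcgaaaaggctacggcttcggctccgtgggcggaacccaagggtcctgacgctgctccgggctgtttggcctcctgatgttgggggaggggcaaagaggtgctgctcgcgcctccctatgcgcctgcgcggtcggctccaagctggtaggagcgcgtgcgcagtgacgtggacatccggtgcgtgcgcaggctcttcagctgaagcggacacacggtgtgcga

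No gene of the network passed the test. Knockout and WT values were compared with limma, a linear model that shares variance information among genes. Changed means an adjusted p under 0.05 (Benjamini-Hochberg, over all 19938 genes). By this rule 0 of the 10 network genes rose, against 0.923% of all genes (184), and 0 fell, against 0.476% of all genes (95). At an unadjusted p under 0.05 there was 1, Mga, against 10.5% of all genes. The median difference of the 10 genes was 0.0 log2 units, as was that of all genes, with 5 differences above 0 and 5 below. Satb1 itself averaged 4.47 ± 0.10 in Satb1-/- cells and 5.14 ± 0.16 in WT cells (SD, n = 3 each; adjusted p = 0.022 in limma). Satb1 missed the threshold without WT array 1 (or without any one knockout array), and whether its probes lie within the deletion is unstated. The ES cell marker Pou5f1, the gene of Oct4, read between 9.78 and 9.90 in Satb1-/- arrays and between 10.00 and 10.53 in WT arrays (adjusted p = 0.309). The values are on the log2 scale of RMA, a method that corrects background, normalizes arrays and summarises probes, and they rank arrays for 1 gene but not genes against each other. Differences of dim genes are compressed on this scale.

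**Figure D1:**
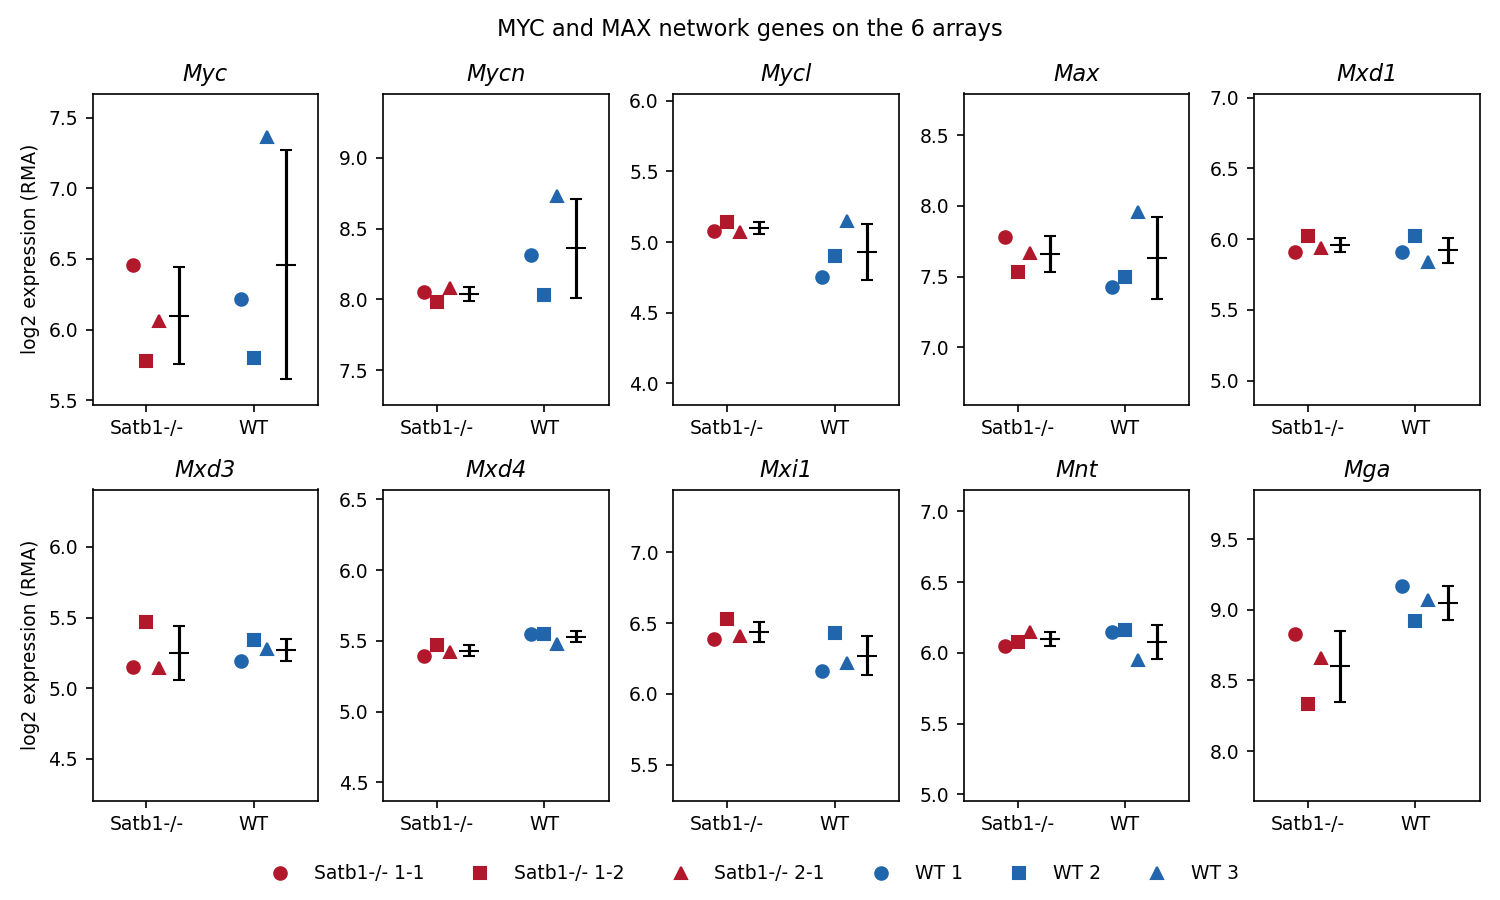
Log2 expression of each of the 10 network genes on the 6 arrays, Satb1-/- left and WT right in every panel, with the mean and SD (n = 3) of each group as a black bar. All panels span the same number of log2 units around their own centre. The groups are apart for Mga and, narrowly, for Mxd4, and WT array 3 stands high for Myc, Mycn and Max.

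Among the 3 MYC genes, the arrays of one group differed more than the groups did. Myc read 6.46, 5.78 and 6.06 in Satb1-/- clones 1-1, 1-2 and 2-1, and 6.22, 5.80 and 7.36 in WT arrays 1, 2 and 3. WT array 3 was the highest of the 6, and the other pair of WT arrays lay within the range of the knockout arrays. The mean was 6.10 ± 0.34 in Satb1-/- cells and 6.46 ± 0.81 in WT cells (SD, n = 3 each), a difference of -0.36 (95% interval -1.09 to 0.37, limma adjusted p = 0.829). The interval is the widest of the network and leaves room for a fall by more than 1 log2 unit or a rise by 0.37. Without WT array 3 the difference was 0.09 (adjusted p = 0.871), so that the sign of the Myc difference rested on that array. It was -0.03 with array weights, which are estimated from these same values and were lowest for WT array 3 (0.445).

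Mycn, which encodes the MYC protein of embryonic and neural progenitors, read 8.05, 7.98 and 8.08 in the Satb1-/- clones and 8.31, 8.03 and 8.73 in WT arrays 1, 2 and 3. The knockout arrays lay close together, while WT array 3 was again the highest and WT array 2 fell inside the knockout range. The difference was -0.32 (95% interval -0.67 to 0.04, limma adjusted p = 0.561), or -0.13 without WT array 3 and -0.48 without WT array 2. Mycl, the remaining MYC paralogue, read 5.08, 5.14 and 5.07 in the Satb1-/- clones and 4.75, 4.90 and 5.15 in WT arrays 1, 2 and 3. The highest and the lowest values were both WT, and the difference was 0.17 (95% interval -0.10 to 0.43, adjusted p = 0.754). It was 0.07 without WT array 1 and 0.27 without WT array 3.

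Max, the shared partner, read 7.78, 7.53 and 7.67 in the Satb1-/- clones and 7.43, 7.50 and 7.96 in WT arrays 1, 2 and 3. The groups overlapped fully, with the knockout values inside the WT range. The difference was 0.03 (95% interval -0.30 to 0.36, adjusted p = 0.983). It was 0.19 without WT array 3, -0.07 without WT array 1 and -0.02 after a second quantile normalization, so no direction was given by the data.

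The 5 repressors that pair with MAX differed by at most 0.17 in either direction. Mxd1 read 5.91, 6.02 and 5.94 in the Satb1-/- clones and 5.91, 6.02 and 5.84 in the WT arrays, a difference of 0.04 (95% interval -0.19 to 0.27). Mxd3, the family member of dividing cells, differed by -0.02 (95% interval -0.28 to 0.25), with clone 1-2 at 5.47 above the other knockout arrays at 5.15 and 5.14. Its WT arrays read 5.19, 5.34 and 5.28. Both genes gave overlapping groups, and both changed sign under other scalings or array weights while staying within 0.12 of 0. Mnt read 6.05, 6.08 and 6.15 in the Satb1-/- clones and 6.15, 6.16 and 5.95 in the WT arrays, a difference of 0.01 (95% interval -0.22 to 0.25). It changed sign too, to -0.03 after a second quantile normalization.

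Mxi1 read 6.39, 6.53 and 6.41 in the Satb1-/- clones and 6.16, 6.43 and 6.22 in the WT arrays. Only WT array 2 reached into the knockout range. The difference was 0.17 (95% interval -0.08 to 0.42, limma adjusted p = 0.696). Mxd4 read 5.39, 5.47 and 5.42 in the Satb1-/- clones and 5.55, 5.55 and 5.48 in the WT arrays. All knockout values were below all WT values, but the gap between the nearest arrays was 0.02 and the difference -0.10 (95% interval -0.32 to 0.12, adjusted p = 0.847). For 7 of the 10 genes, Mycl, Max and the 5 repressors that pair with MAX, the interval lay within 0.5 log2 units of 0 on both sides, while those of Myc, Mycn and Mga reached further.

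Mga had the largest difference. It read 8.83, 8.33 and 8.66 in Satb1-/- clones 1-1, 1-2 and 2-1, and 9.17, 8.92 and 9.07 in WT arrays 1, 2 and 3. All 3 knockout arrays were below all 3 WT arrays, with a gap of 0.10 between the nearest pair and clone 1-2 the lowest. The mean was 8.60 ± 0.25 in Satb1-/- cells and 9.05 ± 0.12 in WT cells (SD, n = 3 each). The difference was -0.45 (SE 0.14, 95% interval -0.76 to -0.14), a fold of 0.733. Its unadjusted p was 0.00885 and its adjusted p 0.204 in limma, so it did not pass the test over all genes. The adjusted p lay between 0.141 and 0.600 and the difference between -0.56 and -0.31 over the 17 alternatives tried, and none brought Mga past the threshold. Groups that did not overlap were found for 2 of the 10 network genes, Mga and Mxd4, both lower in the knockout arrays, against 15.1% of all genes in either direction 6.97% with the knockout arrays below and 8.18% with them above.

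**Figure D2:**
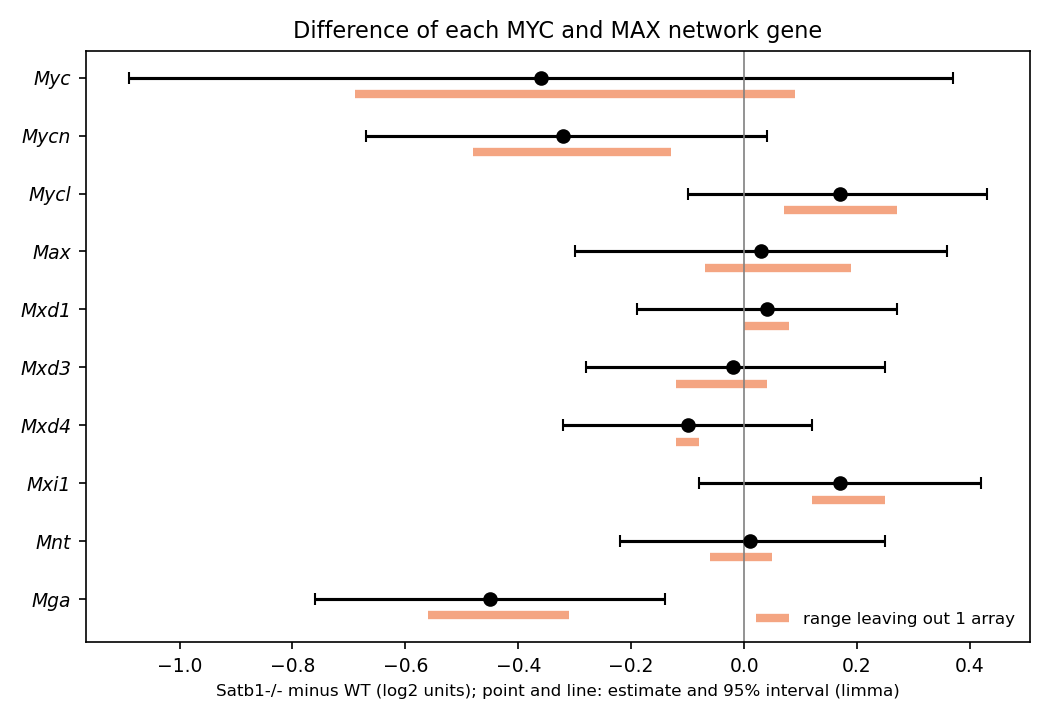
Difference of each network gene, Satb1-/- minus WT in log2 units, with the limma estimate as a point, its 95% interval as a line and, in orange, the range of the estimate when 1 array is left out. The interval of Myc reaches from -1.09 to 0.37 and its orange range crosses 0, while Mga is the 1 gene whose interval leaves out 0 before adjustment.

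The network genes lie on 9 chromosomes, with Mycn and Max on the same one, and the medians of their neighbourhoods were near 0. The 20 tested genes nearest to each network gene, 10 on either side along GRCm38.p6, had median differences between -0.06 (Mycl and Mxd3) and 0.06 (Mga). Of all these neighbours 1 was changed, Nfu1 near Mxd1 on chromosome 6, which rose by 0.62 (adjusted p = 0.012, named after its value was seen). The genes next to Myc on chromosome 15 were A1bg (-0.03, adjusted p = 0.981) and Pvt1, a noncoding RNA gene beside Myc (-0.21, adjusted p = 0.495). Those next to Mycn were Cyria (-0.11) and Ddx1 (-0.04), and those next to Mga were Tyro3 (0.10) and Mapkbp1 (0.08). The adjusted p of these last 4 genes lay between 0.839 and 0.960. The flanking genes of Mycl, Mfsd2a (-0.06) and Trit1 (0.18), of Max, Fntb (0.10) and Fut8 (-0.11), and of Mxd1, Asprv1 (-0.18) and Snrnp27 (-0.02), were not changed. Nor were Prelid1 (-0.04) and Lman2 (-0.05) beside Mxd3, or Nat8l (0.01) and Zfyve28 (-0.01) beside Mxd4. Around Mxi1, 1700001K23Rik (-0.18) and Smndc1 (-0.06), and around Mnt, Mettl16 (-0.15) and Sgsm2 (0.03), did not pass either.

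WT array 3 stood furthest from the other arrays for Myc, Mycn and Max. It read 1.35 log2 units above the mean of the other WT arrays for Myc, 0.56 for Mycn, 0.50 for Max and 0.32 for Mycl, and its offset was -0.12 for Mxd1 and -0.21 for Mnt. For Mycl it was WT array 1 that lay furthest from the mean of the 6 arrays, at -0.27, while WT array 3 and clone 1-2 were both at 0.13. Over all genes the median of the offset of WT array 3 was -0.03 and its median absolute size 0.17, and 24 of 19938 genes (0.12%) were at least as far from 0 as Myc. This array was the highest of the 6 for 4 network genes, Myc, Mycn, Mycl and Max, and the lowest for Mxd1 and Mnt. It was the highest for 20.8% of all genes and for 34.3% of those above the median level, and the lowest for 21.2% and 11.8%. Of the 10 network genes 9 were above the median level. WT array 3 was the highest for 40% of the 10, near the share of genes above that level. It was the lowest for 20%, between the shares of those genes and of all genes. The array also stood apart in trophectoderm and feeder markers. It was closer to the other WT arrays for primed epiblast markers, with means of 6.84, 6.77 and 6.88 in WT arrays 1, 2 and 3. For primitive endoderm markers these means were 5.55, 5.49 and 5.43. The mean of 9 trophectoderm markers was 5.47 to 5.62 in the Satb1-/- arrays and 5.99, 6.06 and 6.70 in WT arrays 1, 2 and 3. The 3 keratin genes Krt8 (-2.72), Krt18 (-2.48) and Krt7 (-1.57) had the largest differences of the list. The transcription factor genes of the list were split. Eomes (0.55) and Tfap2c (0.33) had all knockout arrays above WT, and Elf5 differed by 0.07. Hand1 (-0.31), Cdx2 (-0.23) and Gata3 (-0.16) were below 0, with overlapping groups. WT array 3 was the highest array for 6 of the 9, but not for Eomes, Tfap2c and Elf5. It was the highest for 20.8% of all genes and 34.3% of those above the median level. The mean of 11 feeder fibroblast markers was 6.82 to 7.02 in the Satb1-/- arrays and 6.68, 6.90 and 6.44 in WT arrays 1, 2 and 3. Of the 11, 8 were lowest in WT array 3, against 21.2% of all genes and 11.8% of those above the median level. That level was exceeded by 10 of the 11. The scale has no true zero, so no marker can be called absent. The part of other cells in the Myc and Mycn values was not tested, and in bulk RNA fewer cells of a type and less RNA per cell cannot be told apart.

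Genes that MYC proteins raise were described from 3 lists chosen for this comparison. The 21 nucleolar genes measured, which build ribosomes, had a median difference of -0.12, with 4 above 0 and 17 below, and none passed the test. Their mean level, with each gene set to 0 over the 6 arrays, was 0.11, -0.16 and 0.01 in Satb1-/- clones 1-1, 1-2 and 2-1, and -0.09, -0.17 and 0.30 in WT arrays 1, 2 and 3. Myc on the same scale was 0.18, -0.50 and -0.22 in the Satb1-/- clones and -0.06, -0.48 and 1.08 in the WT arrays. In both patterns WT array 3 was highest, clone 1-1 next, and clone 1-2 and WT array 2 the lowest pair. The other lists did not follow Myc in this way. The metabolic list was at 0.02, 0.04 and 0.08 in the clones and -0.22, -0.08 and 0.16 in the WT arrays, and the cell cycle list at 0.05, -0.01 and 0.06 in the clones and -0.16, -0.13 and 0.18 in the WT arrays. Both were highest in WT array 3 and lowest in WT array 1, not in clone 1-2. WT array 3 was the highest array for 19 of the 21 nucleolar genes, against 34.3% of all genes above the median level. Clone 1-2 was the lowest knockout array for 19 of the 21, against 46.5%. For the metabolic list these shares were 52.4% and 42.9%, and for the cell cycle list 66.7% and 61.1%. The 21 genes share the same 6 arrays and are not independent, and this pattern was picked out after the values were seen.

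Within that list Npm1, a nucleolar chaperone of ribosome assembly, read 11.17, 11.21 and 11.23 in the Satb1-/- clones and 11.23, 11.41 and 11.50 in the WT arrays (difference -0.18, adjusted p = 0.672). Nop56, a core protein of the small RNA particles that modify ribosomal RNA, differed by -0.28 (adjusted p = 0.644). The largest differences of the list ran the other way. Nop2, an rRNA methyltransferase gene on chromosome 6, read 9.82, 9.33 and 9.62 in the Satb1-/- clones and 8.66, 8.20 and 9.10 in the WT arrays (0.94, adjusted p = 0.0593). All its knockout values were above the WT values, and the 20 genes around it had a median of 0.46, with 6 of them changed and higher. Bop1, a gene of large subunit maturation, differed by 0.50 (adjusted p = 0.253).

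**Figure D3:**
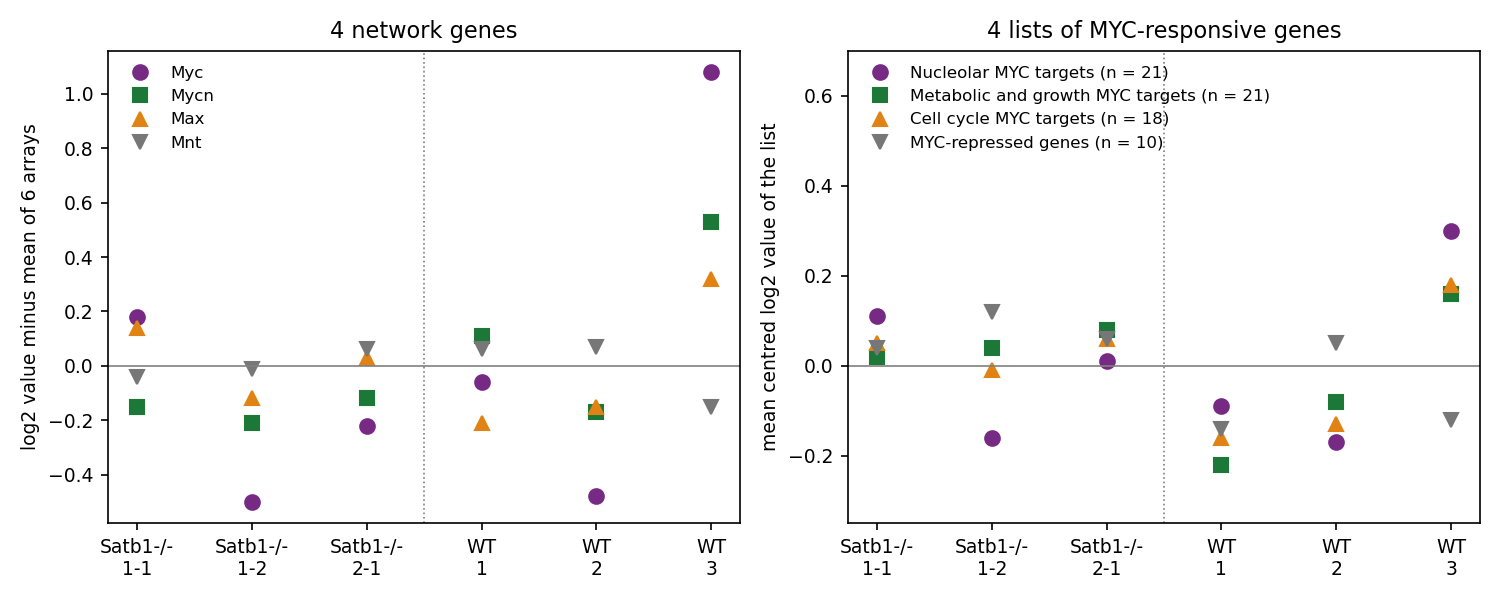
Left, log2 values of Myc, Mycn, Max and Mnt on each array minus the mean of the 6 arrays; right, the mean of such centred values over 4 lists of MYC-responsive genes, on a narrower axis. Satb1-/- arrays stand left of the dotted line and WT arrays right of it. WT array 3 is highest for Myc (1.08) and for the nucleolar list (0.30), and lowest for Mnt (-0.15).

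Of the 21 metabolic and growth genes measured, 1 rose and none fell (0.923% and 0.476% of all genes), with a median of 0.08. The 1 was Phb2, which encodes a prohibitin of the inner mitochondrial membrane. It read 10.98, 10.90 and 10.92 in the Satb1-/- clones and 9.84, 9.82 and 10.36 in the WT arrays, a difference of 0.93 (limma adjusted p = 0.012), with all knockout arrays above the WT arrays. It lies on chromosome 6 among 20 genes of which 8 were changed and higher (median 0.21), and it missed the threshold without WT array 1 or any one knockout array (adjusted p up to 0.0786). Odc1, the rate-limiting enzyme gene of polyamine synthesis and a textbook MYC target, differed by 0.18 (adjusted p = 0.772), Ldha, of lactate production, by 0.22 (adjusted p = 0.520) and Cad, of pyrimidine synthesis, by 0.08 (adjusted p = 0.906). The 18 cell cycle genes had a median of 0.04 and none passed. Ccnd1, a G1 cyclin gene (0.38, adjusted p = 0.642), and E2f1, a regulator of S phase genes (0.34, adjusted p = 0.403), had their largest differences. The 9 proliferation genes measured had a median of 0.0 with none changed, the largest differences being those of the mitotic checkpoint kinase gene Bub1 (-0.18) and of Cdk1 (0.15).

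Among 10 measured genes listed here as repressed by MYC, 1 rose and 1 fell, against 0.923% and 0.476% of all genes. Their median was 0.10. Cdkn1b, which encodes the cyclin-dependent kinase inhibitor p27, read 7.94, 7.96 and 7.86 in the Satb1-/- clones and 6.60, 6.76 and 6.25 in the WT arrays. Every knockout value was more than 1 log2 unit above every WT value, and the difference was 1.39 (SE 0.14, limma adjusted p = 0.000859). It passed with any one array left out, and lies on chromosome 6 among 20 genes with a median of 0.65, 9 of them changed and higher. Klf6, a Kruppel-like factor gene on chromosome 13, read 7.33, 7.15 and 7.42 in the Satb1-/- clones, against 7.83 in the lowest WT array and a WT mean of 7.92 ± 0.08 (SD, n = 3). It fell by 0.62 (SE 0.11, adjusted p = 0.0261), with groups that did not overlap, and its 20 neighbours had a median of -0.04. Klf6 missed the threshold without WT array 1 or any one knockout array (adjusted p up to 0.150). Cdkn1c, which encodes a related inhibitor, had a difference of -0.59 (adjusted p = 0.0746) and Ndrg2 one of 0.57 (adjusted p = 0.122). The list thus had calls in both directions.

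The partners of MAX and MGA in PRC1.6 and their germline targets did not pass the test. Of 12 partner genes, 6 were above 0 and 6 below, with a median of 0.04. Tfdp1, a dimer partner of E2F6 in the complex, read 8.46, 8.21 and 8.28 in the Satb1-/- clones and 8.85, 8.46 and 8.97 in the WT arrays (difference -0.45, adjusted p = 0.223). It lies on chromosome 8, whose 955 genes had a median of -0.19. Wdr5, which binds histone H3, differed by 0.21 (adjusted p = 0.655), Pcgf6, the subunit that defines PRC1.6, by 0.08 (adjusted p = 0.946) and L3mbtl2 by -0.15 (adjusted p = 0.903). Of the 14 germline targets, 5 were above 0 and 9 below, with a median of -0.04. Only 4 of the 14 were above the median level of all genes, and differences of dim genes are compressed on this scale. Zcwpw1, a gene of meiotic recombination, read 5.37, 4.84 and 4.98 in the Satb1-/- clones and 5.46, 5.52 and 5.76 in the WT arrays (-0.52, adjusted p = 0.168), and Smc1b, of meiotic cohesin, differed by 0.47 (adjusted p = 0.451). Ddx4, a germ cell helicase gene that MAX represses in ES cells, was above the median level. It read 7.44, 6.97 and 7.39 in the Satb1-/- clones and 7.09, 6.91 and 7.79 in the WT arrays. The difference was 0.01 (95% interval -0.47 to 0.48, limma adjusted p = 0.997).

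The corepressors and coactivators of the network gave no call either. Among 8 SIN3 genes the median was 0.07, and the largest differences were those of Sin3b (-0.47, adjusted p = 0.192) and Sap30 (-0.45, adjusted p = 0.105), both on chromosome 8 with neighbours at medians of -0.25 and -0.16. Sin3b read 6.98, 6.74 and 6.82 in the Satb1-/- clones and 7.01, 7.43 and 7.50 in the WT arrays, so the groups were apart by a narrow margin. Sin3a, the scaffold that MXD proteins bind, differed by 0.15 (adjusted p = 0.695). Of 9 coactivator genes, 6 were above 0, with a median of 0.17. Ep400, of the TIP60 complex, read 7.79, 7.69 and 7.77 in the Satb1-/- clones and 7.54, 7.51 and 7.54 in the WT arrays, a difference of 0.22 (adjusted p = 0.468), and Wdr5 also belongs to this list. The 11 genes of MYC protein turnover had a median of 0.03, a range of -0.18 (Usp28, a deubiquitinase gene) to 0.20 (Gsk3b, of a kinase that marks MYC for degradation) and no call. Fbxw7, of the ubiquitin ligase that recognises that mark, differed by 0.06 (adjusted p = 0.944).

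**Figure D4:**
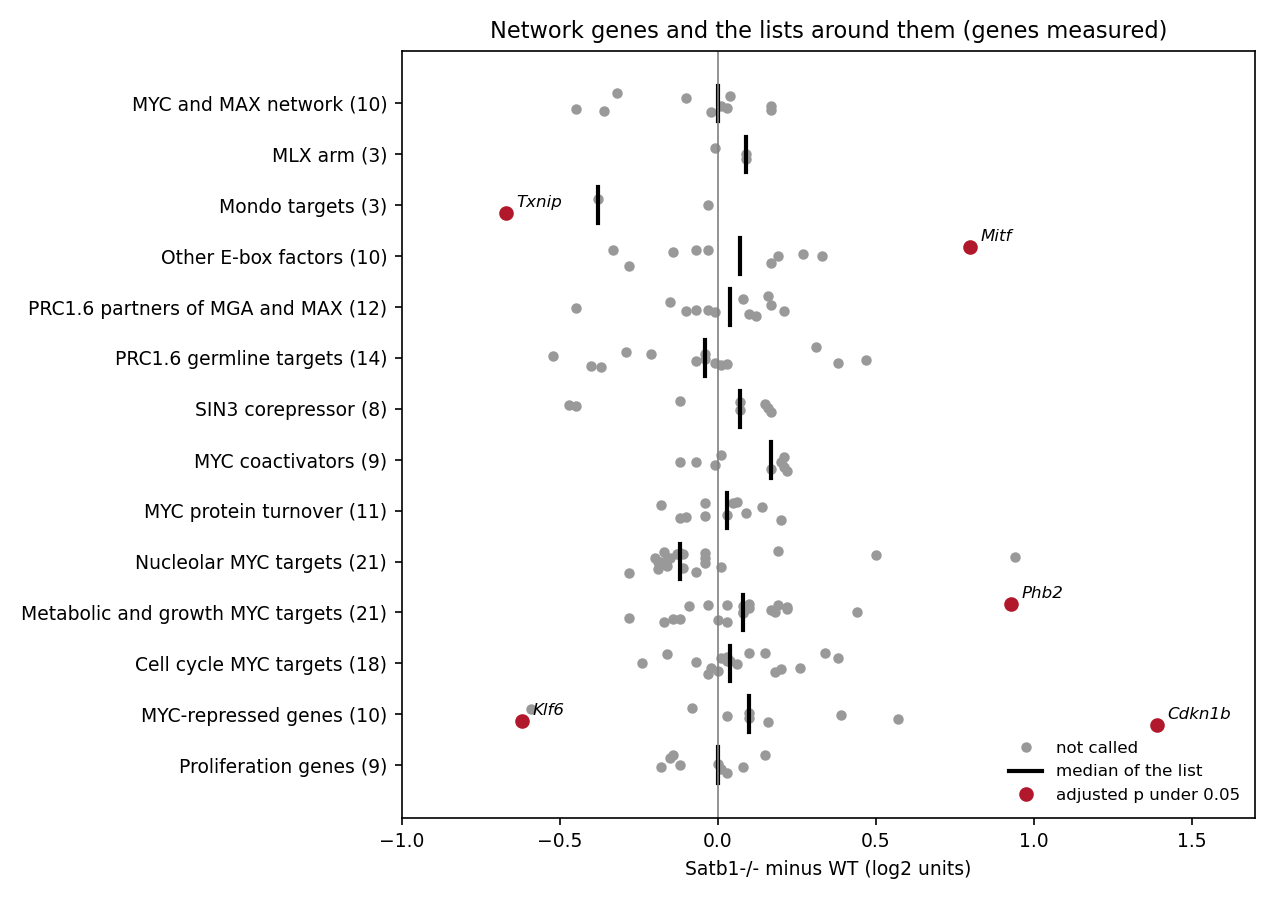
Difference of each gene, Satb1-/- minus WT in log2 units, for the network and 13 lists around it, with the number of genes measured. Points are genes, red where the limma adjusted p is under 0.05, and black bars are list medians. The 5 red genes are Txnip, Mitf, Phb2, Cdkn1b and Klf6, and the network row has none.

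MLX and the Mondo factors form the parallel, glucose-responsive arm of the network. Mlx differed by 0.09, its partner gene Mlxip by -0.01 and Mlxipl by 0.09 (adjusted p between 0.889 and 0.994). Of 3 target genes of that arm, 1 fell, against 0.476% of all genes. Txnip, which encodes an arrestin-like inhibitor of glucose uptake, read 9.08, 9.08 and 9.06 in the Satb1-/- clones and 9.58, 10.03 and 9.62 in the WT arrays. The knockout values were nearly equal and all lay below WT, and the difference was -0.67 (SE 0.13, limma adjusted p = 0.0358). Txnip missed the threshold without WT array 2 (-0.53), without any one knockout array, and with arrays centred (adjusted p = 0.0621). Pklr, a pyruvate kinase gene, read 5.08, 5.09 and 5.09 in the Satb1-/- clones and 5.60, 5.35 and 5.45 in the WT arrays (-0.38, adjusted p = 0.150), and Arrdc4 differed by -0.03 (adjusted p = 0.981). Of 10 other E-box factor genes outside the network, 1 rose, against 0.923% of all genes. Mitf, known from melanocytes, read 5.49, 5.92 and 5.46 in the Satb1-/- clones and 4.81, 4.75 and 4.90 in the WT arrays (0.80, adjusted p = 0.0173). Its call was lost when any array other than WT array 3 was left out (0.65 to 0.88), averaged 0.46 over its 2 probe sets (adjusted p = 0.0542), and its 20 neighbours on chromosome 6 had a median of -0.01. Over all 13 lists, 3 of 146 measured genes rose and 2 fell, which is 3.42% against 1.40% of all genes. Most list genes were above the median level, so the share of all genes is not a like background. In a fit of only the 9969 genes above that level, 214 rose and 112 fell, among them 4 and 2 genes of the lists. For 2 of the 3 that rose in the main fit, Phb2 and Cdkn1b, 8 and 9 of their 20 neighbours on chromosome 6 rose as well. With a floor at the 25th percentile of the values, none of Txnip, Mitf, Phb2, Cdkn1b and Klf6 passed. Their differences were the same with the floor as without it. The floor flattens dim genes and so alters the variance that limma shares among all genes.

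Genes that follow Myc and Mycn most closely over the 6 arrays were sought among the 9969 genes above the median level. For Myc they were Dhx8, Pitpnb and Rpp38 (Pearson's r between 0.997 and 0.999), and for Mycn Akt1s1, Basp1 and Mrtfa (r between 0.987 and 0.993). Rpp38, of the RNase P complex, read 8.02, 7.69 and 7.78 in the Satb1-/- clones and 7.88, 7.68 and 8.58 in the WT arrays, so that it too was highest in WT array 3. The 6 genes were picked as the closest of 9969 over only 6 arrays, and all were highest in WT array 3.

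Markers of cell states were set beside these values. Of 12 ES cell markers 5 rose and none fell (median 0.34), against 0.923% and 0.476% of all genes. Nanog rose by 1.09, Klf4 by 0.97, Tfcp2l1 by 0.88, Klf5 by 0.60 and Esrrb by 0.56. Of these, Nanog passed with any one array left out. Nanog lies on chromosome 6 among 20 genes with a median of 0.25, 6 of them changed and higher. The other 4 missed the threshold without clone 1-2 or clone 2-1, among other arrays, and Klf4 kept its call only when WT array 3 was the array left out. All knockout arrays were above WT for 6 of the 12 markers, against 8.18% of all genes. They were below WT for 2, Pou5f1 (-0.39) and Tdgf1 (-0.06), against 6.97% of all genes. Of 9 trophectoderm markers 2 fell, Krt8 (-2.72) and Krt18 (-2.48), with a median of -0.23. Krt7 (-1.57), Hand1 (-0.31), Cdx2 (-0.23) and Gata3 (-0.16) were also below 0 without passing. Eomes (0.55, adjusted p = 0.068) and Tfap2c (0.33, adjusted p = 0.246) lay above WT in all knockout arrays without passing, and Elf5 differed by 0.07. Of 8 primed epiblast markers 7 were below 0 and 1 fell, with a median of -0.26. The 1 that fell was Dnmt3a (-0.94, missed without WT array 1 or any one knockout array). Otx2 had the largest difference of the list (-1.29, limma adjusted p = 0.128), with all knockout arrays below WT, but did not pass. Of 10 primitive endoderm markers 1 rose, Lama1 (1.53), with a median of 0.01. Of 11 feeder markers none was changed, but 10 were above 0 and 1 below, with a median of 0.18. Thy1 (0.62, limma adjusted p = 0.262) had all knockout arrays above WT. The part of these cell states in the levels of the network genes was not tested.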

How the data were processed

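RNA from 3 Satb1-/- and 3 WT samples was measured on arrays of 1 colour. The authors deposited log2 values, which RMA gave for every probe set on every array, per the submitters' processing notes; no source used here states its version or settings. Array medians lay between 4.69 and 4.85 over 35557 probe sets. Arrays have no read depth, and their number limits the precision. The platform annotation named 1 gene for 21789 probe sets, several for 1621 and none for 12147. The brightest probe set of each gene was kept, which left 19938 genes, 19853 of them found in RefSeq (GRCm38.p6), the source of chromosomes and neighbours. The genome build of the array design is unstated. Of 216 genes in 19 lists, the network included, 206 were measured.

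Satb1-/- was compared with WT in limma 3.58.1 under R 4.3.3 (lmFit, eBayes, moderated 95% intervals) with neither covariates nor a filter, and p-values were adjusted over all genes. In simulated arrays with 200 changed genes and independent noise, it recovered 22.1% of those shifted by 0.5 log2 units, 80.9% at 1 unit and 98.8% at 2 units, and 4.44% of its calls were false. Named were the members, Satb1, the changed genes of each list or else the 2 with the largest difference, flanking genes, and the 3 closest patterns to Myc and Mycn; further list genes were named for their role, after their values were seen. The members and lists were chosen with earlier results of these data known. Other scalings, filters, a floor, other probe set rules, variance models, array weights, merged clones and leaving out chromosomes or arrays were tried as alternatives.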

Additional observations from a re-analysis of the deposited data

How the results depend on the processing

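No paired analysis was possible because the arrays of the 2 groups share no replicate number. The count of changed network genes stayed at 0 in both directions under all 17 alternatives. Over all genes, 184 rose and 95 fell; these were 159 and 47 with each array centred, 242 and 183 after a second quantile normalization, 10 and 2 with a floor at the 25th percentile, 68 and 15 over all probe sets, 373 and 235 with array weights, 90 and 27 with clones 1-1 and 1-2 as 1 sample, 86 and 23 at an adjusted p under 0.01, 74 and 21 without chromosomes 6, 8 and Y, and 74 to 356 and 19 to 124 without 1 array, with the most without WT array 3 and at most 93 and 28 without a knockout array. For the lists around the network (3 and 2), they were 3 and 1 when centred, 4 and 4 after quantile normalization, 0 and 0 with the floor, 1 and 0 over all probe sets, 5 and 3 with weights, 2 and 0 with the clones merged, 1 and 0 at the stricter threshold, 0 and 1 without the chromosomes (which removes Phb2, Cdkn1b and Mitf), and 1 to 7 and 0 to 2 without 1 array. Of 168 differences of network genes under the alternatives, 153 kept their sign and side of the threshold and 15 changed sign, none of them past it. The sign changed for Mxd3 when centred (0.01) and after quantile normalization (0.01), for Max (-0.02) and Mnt (-0.03) after quantile normalization, and for Mxd1 (-0.01) and Mnt (-0.02) with weights. Leaving out 1 array gave -0.69 to 0.09 for Myc, -0.07 to 0.19 for Max, -0.12 to 0.04 for Mxd3 and -0.06 to 0.05 for Mnt. Apart from the smaller sets of arrays or genes, the cause was not tested. At 3 arrays a group, only 22.1% of changes of 0.5 log2 units were recovered in simulated data. Changes of the size of Mga's difference would thus mostly be missed by this design. Mycl has no value under the filter on genes below the median, nor Mxd1 without chromosome 6.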
